A study of Mus musculus with 9 samples.

Results

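The 10 genes described here encode the enzymes that dispose of superoxide and peroxides: the superoxide dismutases Sod1 and Sod2, catalase (Cat), the glutathione peroxidases Gpx1 and Gpx4, and the peroxiredoxins Prdx1, Prdx2, Prdx3, Prdx5 and Prdx6. They were taken by gene name from a table of 54532 genes, and all 10 were abundant enough to test, with 408 to 20436 counts in a library. The RNA came from HC11 cells, an established mouse mammary epithelial line labelled as C57BL/6 and grown in medium with 10% fetal bovine serum. EpPT1 and EpPT2 are cultures exposed in 12-well dishes to 660 nm light, from a 10 mW laser by the treatment protocol, and Ctrl is the untreated culture, with 3 libraries in each group. The series title names human breast epithelium and a diode laser and the design text mouse cells and an LED, so the light source is uncertain, while the organism label and the gene IDs are mouse. EpPT1 is labelled with 10 J/cm2 and EpPT2 with 20 J/cm2, while the treatment protocol has 0.5 and 1 J/cm2, so the groups are used here by name and not as doses. The sources used here do not give the time between exposure and lysis, nor whether replicate libraries stand for separate cultures, so each p-value reflects the spread among libraries, which may be technical.

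Superoxide dismutases turn superoxide into hydrogen peroxide, Sod1 with copper and zinc in the cytosol and Sod2 with manganese in the mitochondrial matrix. The peroxide is then broken down by catalase in peroxisomes, reduced by selenium-containing glutathione peroxidases with electrons from glutathione, or reduced by peroxiredoxins, most of which are recycled by thioredoxin. Red light is thought to be absorbed in part by mitochondrial enzymes, and its effect on cells is often studied through reactive oxygen species.

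Promoter sequences are shown for 3 of the genes: Sod1 and Prdx1, because they hold the core letters of the antioxidant response element, TGACNNNGC, to which the transcription factor encoded by Nfe2l2 binds, and Prdx3, which holds none and varied most between the libraries. Each is the 250 bases before the RefSeq start on build GRCm38.p6, 5′ to 3′ on the gene's strand, with the element in capitals. The Sod1 window lies at chr16:90220512-90220761 on the plus strand, the Prdx1 window at chr4:116685349-116685598 on the plus strand and the Prdx3 window at chr19:60874539-60874788 on the minus strand.
Sod1: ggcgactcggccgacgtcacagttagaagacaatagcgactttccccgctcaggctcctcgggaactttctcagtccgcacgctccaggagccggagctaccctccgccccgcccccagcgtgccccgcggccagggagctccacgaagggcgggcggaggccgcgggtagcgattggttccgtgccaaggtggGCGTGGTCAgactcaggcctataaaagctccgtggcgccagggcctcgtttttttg
Prdx1: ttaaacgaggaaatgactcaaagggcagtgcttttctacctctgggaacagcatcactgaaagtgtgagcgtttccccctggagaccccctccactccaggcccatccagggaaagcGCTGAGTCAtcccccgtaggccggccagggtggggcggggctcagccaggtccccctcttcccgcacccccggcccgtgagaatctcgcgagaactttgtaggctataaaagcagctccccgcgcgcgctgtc
Prdx3: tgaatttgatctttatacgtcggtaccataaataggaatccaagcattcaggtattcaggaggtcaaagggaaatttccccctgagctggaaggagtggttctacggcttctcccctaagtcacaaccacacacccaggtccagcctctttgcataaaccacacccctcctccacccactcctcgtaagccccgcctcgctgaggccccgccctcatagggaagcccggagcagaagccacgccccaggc

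In Sod1 the element reads TGACCACGC on the opposite strand, 56 to 48 bases before the start. In Prdx1 it reads TGACTCAGC on the opposite strand, 133 to 125 bases before the start, and its first letters, TGACTCA, are also those of an AP-1 site. RefSeq promoter entries were found for 9 of the 10 genes, with 4 entries for Gpx4, and 2 of the 9 genes held the core on either strand, beside 10.161% of 32851 promoters of the same length. The GC box GGGCGG was present in 7 of the 9 genes, against 32.742% of promoters, and CCAAT in 4 of the 9, against 33.85%. These matches describe the letters in the window and do not show a bound site.

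Total counts were 14549787 to 17228929 per library, and 14471 genes were tested. In edgeR's quasi-likelihood test with Benjamini-Hochberg adjustment, 0 genes passed an adjusted p of 0.05 in any of the 3 comparisons, with 568 genes at an unadjusted p under 0.05 in EpPT1 against Ctrl, 1763 in EpPT2 against Ctrl and 31 in EpPT2 against EpPT1, while DESeq2 called 1, 62 and 0 genes. The libraries divided by the share of counts on mitochondrial genes: EpPT1 3, EpPT2 2, EpPT2 3 and Ctrl 3 had 6.056% to 7.485%, and the other 5 libraries 2.735% to 3.623%. The epithelial markers Krt8, Krt18 and Epcam were present in every library, whereas Cdh1, the epithelial cadherin, had 4 to 11 counts. Of the markers of other cell types, Dcn reached 733 to 3288 counts per 1000000 counts of its library (CPM) and Lpl 231 to 409 CPM. Pdgfra had 2.65 to 8.19 CPM, while Col1a1 and Col3a1 stayed at or under 3.34 CPM. Adipoq, Plin1 and Fabp4 stayed at or under 0.396 CPM, and Ptprc, Cd3e and Hbb-bs at or under 0.763 CPM. The fourth blood and immune marker, Cd68, had 8.50 to 102 CPM.

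Per length, Prdx1 was the most abundant of the 10 genes in all 9 libraries, Cat the ninth and Sod2 the tenth. Levels were compared as CPM per kilobase of exon, because a long transcript collects more reads at the same abundance. The lengths are exon bases listed per gene, for Sod1, Prdx2 and Prdx5 equal to those of all annotated transcripts together. A shorter expressed transcript would have a higher level per length, so the order depends on the lengths used. Prdx1, a cytosolic peroxiredoxin, averaged 307 ± 51.2 CPM per kilobase (SD, n = 9), with 240 in its lowest and 388 in its highest library. Prdx6, which reduces phospholipid hydroperoxides with a single catalytic cysteine, followed at 168 ± 26.6, and Gpx4, the glutathione peroxidase that reduces lipid hydroperoxides in membranes, at 153 ± 28.1. Prdx6 stood above Gpx4 in 5 of 9 libraries, so the order of these neighbours was not settled.

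A middle group of 4 genes could not be put in order: Gpx1, the cytosolic and mitochondrial glutathione peroxidase, averaged 77.3 ± 20.2, Sod1 77.1 ± 16.3, Prdx2, a cytosolic peroxiredoxin abundant in red cells, 72.1 ± 10.9, and Prdx3, the peroxiredoxin of the mitochondrial matrix, 68.5 ± 33.6 CPM per kilobase. Their ranges overlapped, and Gpx1 was above Sod1 in 3 of 9 libraries although its mean was the higher. Prdx5, found in mitochondria, peroxisomes and cytosol, averaged 47.4 ± 9.41 CPM per kilobase, and Prdx3 stood above it in 5 of 9 libraries. Prdx5 was thus not set apart from the middle group. Cat averaged 29.6 ± 5.66 and Sod2 4.66 ± 1.37 CPM per kilobase. Sod2 was divided by the 10008 exon bases listed for it, the greatest length of the 10 genes, so a level per length of any shorter transcript would be higher. On these exon lengths, 3970 bases for Sod1, the Sod1 level per length was 7.60 to 30.9 times that of Sod2 by library, a size that depends on the lengths used.

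**Figure D1:**
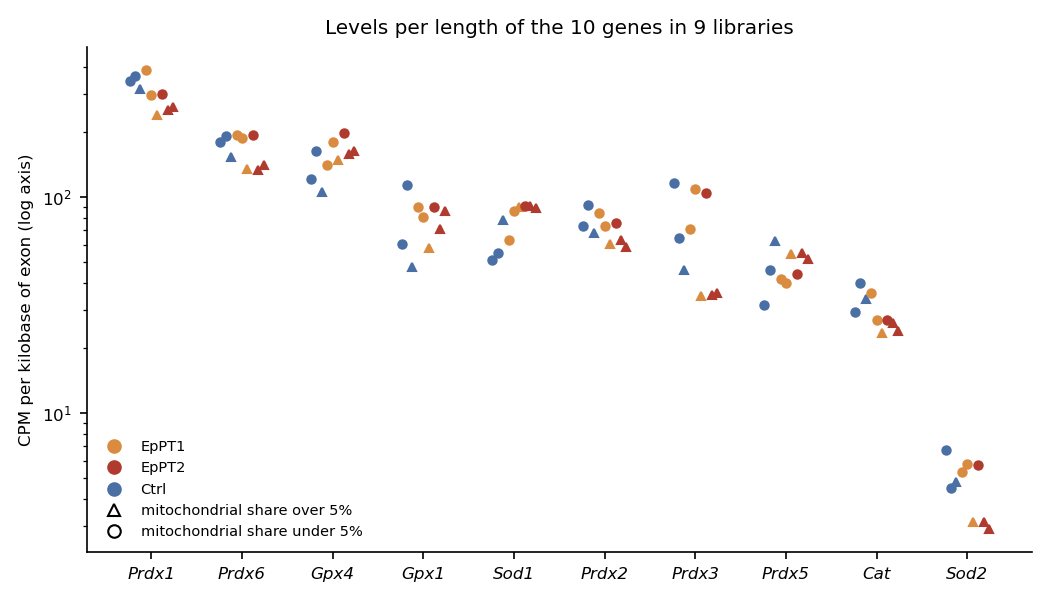
CPM per kilobase of exon of the 10 genes on a log axis, in order of their means, with 1 point per library, coloured by group; triangles are the 4 libraries with over 5% mitochondrial counts and circles the other 5. Prdx1 lies between 240 and 388 and above all others, and Sod2 between 2.88 and 6.70, below all others.

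Together the 10 genes took 0.248% to 0.345% of all counts in a library, and Prdx1 and Prdx6 made up 58.74% of that sum over the libraries. The range of log2 CPM over the 9 libraries had a median of 0.87 in the 10 genes and 1.34 in all 14471 genes tested. Prdx6 spanned 0.55, wider than the range of 5.19% of genes, and Prdx3 spanned 1.73, wider than the range of 67.4% of genes. The ranges of 9 of the 10 genes lay below the median of all genes, Prdx3 being the exception. The genes compared were not matched for abundance, on which such a range depends.

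Sod1 had the smallest p of the 10 genes in EpPT2 against Ctrl, without passing the test. It had 251, 343 and 357 CPM in EpPT1 libraries, 360, 360 and 353 CPM in EpPT2 libraries, and 202, 218 and 310 CPM in Ctrl libraries, in replicate order. The EpPT2 libraries lay close together and all above the Ctrl libraries, whereas EpPT1 1 lay below Ctrl 3, so those groups overlapped. The log2 difference was 0.56 (SE 0.23, 95% interval 0.04 to 1.07) in EpPT2 against Ctrl, with an unadjusted p of 0.0366 and an edgeR adjusted p of 0.388 over all genes tested. In EpPT1 against Ctrl it was 0.38 (SE 0.23, interval -0.13 to 0.89), with an edgeR adjusted p of 0.991. In bulk RNA, fewer cells that express a gene and less of its RNA per cell cannot be told apart.

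Of the 10 genes, 1 had an unadjusted p under 0.05 in EpPT2 against Ctrl, where 12.2% of all genes tested did, and 0 of 10 did in EpPT1 against Ctrl, where 3.93% did. The groups did not overlap in CPM for 3 of 10 genes in EpPT2 against Ctrl, Sod1 above and Cat and Prdx1 below, beside 23.2% of all genes tested, made up of 12.3% that were higher and 10.9% that were lower. These shares lie near the background. In EpPT1 against Ctrl the groups overlapped for all 10 genes, beside 5.26% of genes that did not overlap.

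The Sod1 difference kept its sign in all 16 other settings, from 0.44 to 0.80 in EpPT2 against Ctrl, with edgeR or DESeq2 adjusted p from 0.123 to 0.919. With the mitochondrial share as a covariate it was 0.52 (unadjusted p 0.0129, where 24.4% of genes were under 0.05). Within the libraries of low share, EpPT2 1 had 360 CPM against a mean of 210 CPM in Ctrl 1 and 2, and within those of high share EpPT2 2 and 3 averaged 357 CPM against 310 CPM in Ctrl 3, a log2 ratio of 0.20. So the Ctrl library of high share lay nearest to the exposed libraries. Ccs, the chaperone that loads copper into Sod1, had 20.5, 42.8 and 35.7 CPM in EpPT1 libraries, 41.8, 34.9 and 28.5 CPM in EpPT2 libraries, and 18.6, 24.2 and 20.6 CPM in Ctrl libraries. Its EpPT2 libraries also all lay above the Ctrl libraries, with a log2 difference of 0.73 (SE 0.30) and an edgeR adjusted p of 0.385, but the difference was 0.23 once a trend with the GC content of genes had been removed from each library, against 0.66 for Sod1 (unadjusted p 0.019, where 6.19% of genes were under 0.05).

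Sod2 had 53.3, 58.1 and 31.3 CPM in EpPT1 libraries, 57.4, 31.1 and 28.8 CPM in EpPT2 libraries, and 67.1, 44.7 and 47.8 CPM in Ctrl libraries. The 3 lowest values came from exposed libraries with a high mitochondrial share, and the groups overlapped. The log2 difference was -0.44 (SE 0.34, interval -1.19 to 0.31, edgeR adjusted p 0.574) in EpPT2 against Ctrl and -0.16 (SE 0.34) in EpPT1 against Ctrl. Without EpPT2 1, the only EpPT2 library of low mitochondrial share, the EpPT2 difference was -0.83 (edgeR adjusted p 0.348). The EpPT2 libraries left were then all of high share. The EpPT2 difference was -0.26 without EpPT2 3, -0.24 without Ctrl 1 and -0.11 (SE 0.29) with the GC trend removed. In libraries of low share alone it was 0.06, resting on 1 EpPT2 library. The third dismutase, the secreted Sod3, had 0 to 2 counts per library, which is at or under the floor of 3 counts.

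**Figure D2:**
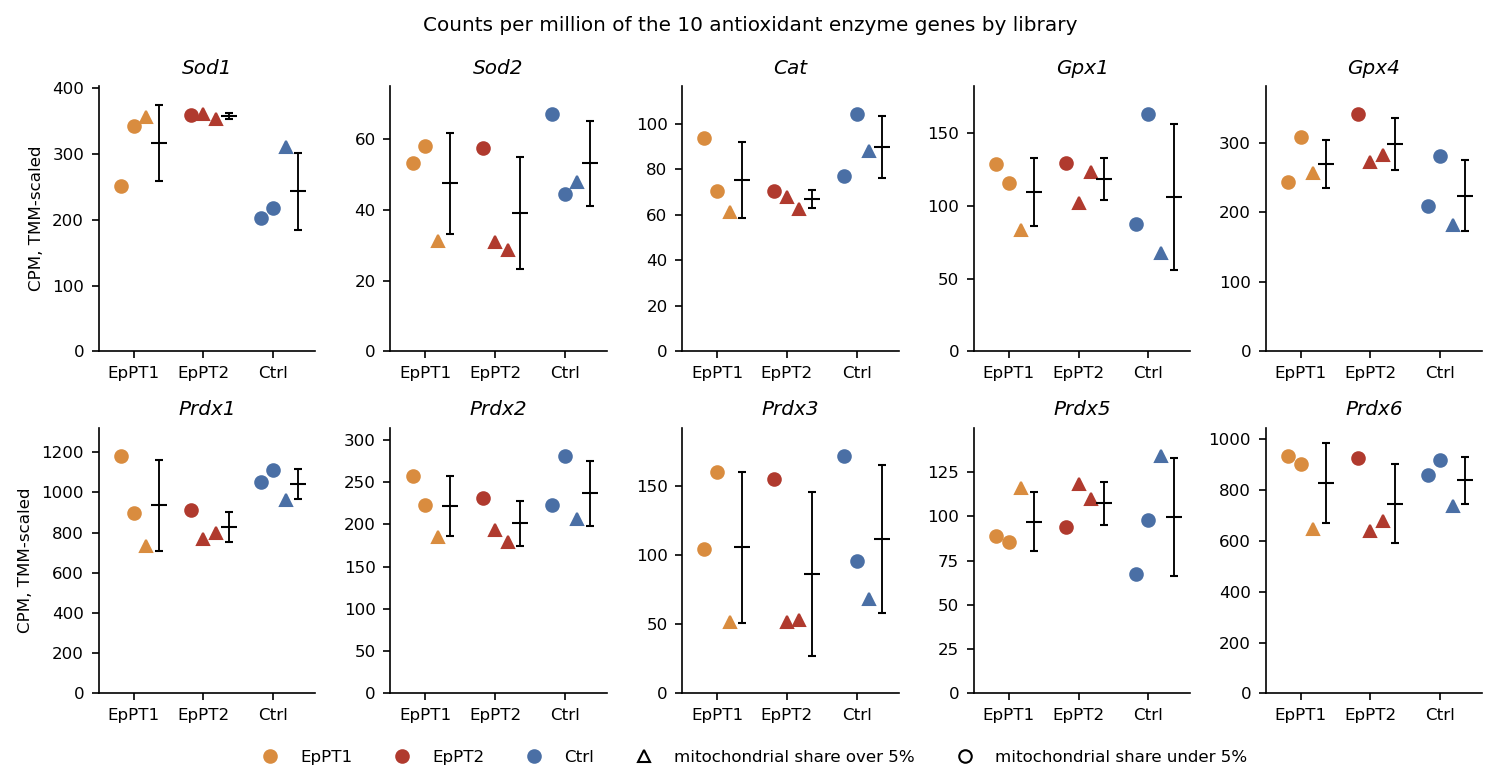
TMM-scaled CPM of each gene in the 3 libraries of EpPT1, EpPT2 and Ctrl, with the mean and SD of each group as a black bar beside the points; triangles are libraries with over 5% mitochondrial counts. Sod1 lies at 353 to 360 CPM in EpPT2 libraries, above all Ctrl libraries, while the groups of Prdx3 and Prdx6 overlap widely.

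Catalase was the member with the second smallest p in EpPT2 against Ctrl, in the direction opposite to Sod1. Cat had 93.8, 70.5 and 61.1 CPM in EpPT1 libraries, 70.5, 67.9 and 62.7 CPM in EpPT2 libraries, and 76.9, 104 and 87.8 CPM in Ctrl libraries. All EpPT2 libraries lay below all Ctrl libraries, and the EpPT1 libraries overlapped with them. The log2 difference was -0.42 (SE 0.22, interval -0.91 to 0.07) in EpPT2 against Ctrl, with an edgeR adjusted p of 0.447, and -0.25 (SE 0.22) in EpPT1 against Ctrl, with an edgeR adjusted p of 0.991. It stayed between -0.52 and -0.30 in EpPT2 against Ctrl under the 16 other settings, among them -0.37 with the GC trend removed.

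The differences of both glutathione peroxidases changed sign when the GC trend was removed. Gpx4 had 244, 309 and 256 CPM in EpPT1 libraries, 341, 273 and 282 CPM in EpPT2 libraries, and 209, 282 and 182 CPM in Ctrl libraries. Ctrl 2 lay above EpPT2 2, so the groups overlapped by 1 library. The log2 difference was 0.41 (SE 0.23, interval -0.09 to 0.91, edgeR adjusted p 0.456) in EpPT2 against Ctrl and 0.27 (SE 0.23) in EpPT1 against Ctrl. Removing the GC trend turned the first to -0.40 (SE 0.31). In the longest annotated transcript of Gpx4, 60.2% of the bases are G or C, the highest share of the 10 genes.

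Counts of Gpx4 may also be shared with the pseudogene Gpx4-ps2, which matched a Gpx4 transcript over 762 bases at 99.738% identity and held 17.004% as many counts as Gpx4. Added together, Gpx4 and Gpx4-ps2 had 316 to 402 CPM in EpPT2 libraries and 211 to 329 CPM in Ctrl libraries, with a log2 ratio of means of 0.40. Pseudogenes with at least 95% identity held 1.524% as many counts as Sod1, 0.429% as many as Prdx1 and 0.051% as many as Prdx2. A Sod2 transcript matched transcripts of Rps6ka2 over 3110 bases at 98.264% identity and of AC166110.4 over 3108 bases at 98.456% identity, and both of these genes are listed at 0 counts in all libraries. How reads from that stretch were assigned is unknown, which limits the level of Sod2 per length. No such copy was found for Cat, Gpx1, Prdx3, Prdx5 and Prdx6.

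Gpx1 had 129, 116 and 83.8 CPM in EpPT1 libraries, 130, 102 and 123 CPM in EpPT2 libraries, and 87.4, 163 and 67.9 CPM in Ctrl libraries. Its highest and its lowest library were both Ctrl, and the exposed libraries lay between them. The log2 differences were 0.16 (SE 0.32) in EpPT2 against Ctrl and 0.05 (SE 0.32) in EpPT1 against Ctrl, and they became -0.40 and -0.22 with the GC trend removed. Of the other 6 glutathione peroxidases, Gpx8, an enzyme of the endoplasmic reticulum, had 44.8 to 77.8 CPM and was at 0.02 (SE 0.28) in EpPT2 against Ctrl, Gpx2 had at most 58 counts, and Gpx3, Gpx5, Gpx6 and Gpx7 at most 12.

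**Figure D3:**
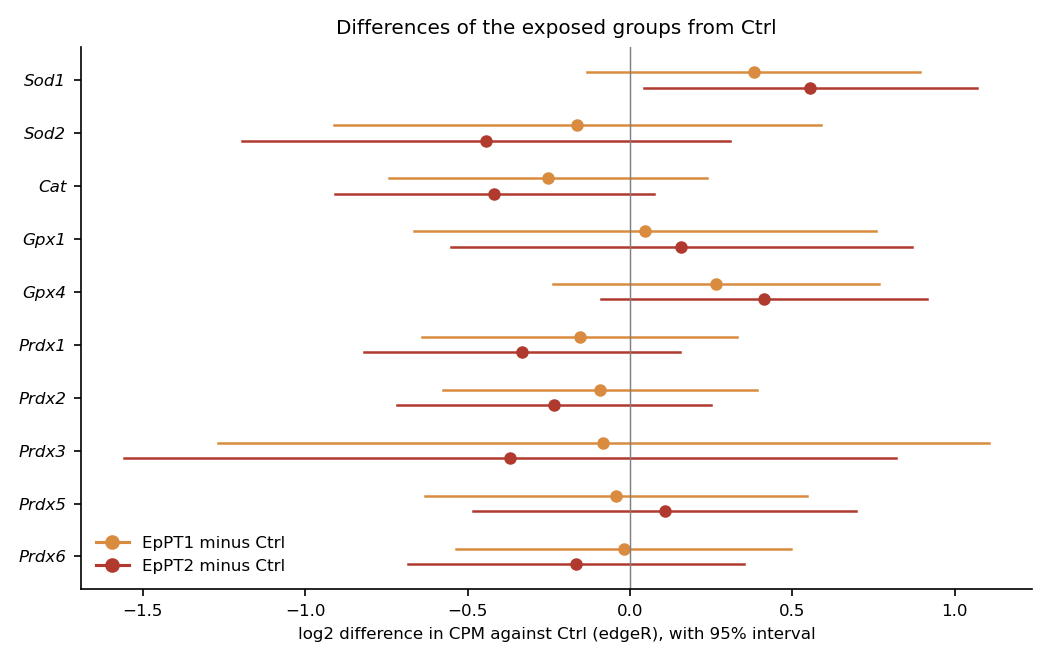
Log2 differences of EpPT1 and EpPT2 from Ctrl for the 10 genes, from 1 edgeR fit of all 9 libraries, with 95% intervals as lines. The interval of Sod1 in EpPT2 runs from 0.04 to 1.07 and is the only one of the 20 drawn that does not hold 0.

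Among the 5 peroxiredoxins, the cytosolic Prdx1 had the smallest p in EpPT2 against Ctrl. It had 1179, 899 and 731 CPM in EpPT1 libraries, 914, 771 and 799 CPM in EpPT2 libraries, and 1052, 1110 and 964 CPM in Ctrl libraries. The highest EpPT2 library lay below the lowest Ctrl library, and the EpPT1 libraries spanned both groups. The log2 difference was -0.33 (SE 0.22, interval -0.82 to 0.15, edgeR adjusted p 0.520) in EpPT2 against Ctrl and -0.15 (SE 0.22) in EpPT1 against Ctrl. With the GC trend removed it was -0.01 in EpPT2 against Ctrl. In the longest annotated transcript of Prdx1, 42.3% of the bases are G or C.

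Prdx2 had 257, 223 and 185 CPM in EpPT1 libraries, 231, 193 and 180 CPM in EpPT2 libraries, and 223, 280 and 207 CPM in Ctrl libraries. The groups overlapped, with a log2 difference of -0.23 (SE 0.22) in EpPT2 against Ctrl and -0.09 (SE 0.22) in EpPT1 against Ctrl. Prdx1 and Prdx2 kept a nearly constant proportion, with Prdx1 per length at 3.96 to 4.74 times Prdx2 in every library. Prdx2 shares 173 exon bases with Junb and 177 with Rnaseh2a on the opposite strand, of 3050. Since the strand setting of the counts is unknown, it is unclear to which gene reads within these stretches were assigned. The other exon bases of Prdx2 are not shared with these genes.

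Prdx6 had 933, 904 and 646 CPM in EpPT1 libraries, 926, 639 and 678 CPM in EpPT2 libraries, and 859, 921 and 737 CPM in Ctrl libraries. Its log2 difference was -0.17 (SE 0.23) in EpPT2 against Ctrl and -0.02 (SE 0.23) in EpPT1 against Ctrl. Within each group the library or libraries with a high mitochondrial share were lowest.

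Prdx3 varied over 3.32-fold without following the groups. It had 105, 160 and 51.5 CPM in EpPT1 libraries, 155, 51.9 and 52.9 CPM in EpPT2 libraries, and 171, 95.7 and 68.1 CPM in Ctrl libraries. Every group held a high and a low value, and the log2 difference was -0.37 (SE 0.54, interval -1.56 to 0.82) in EpPT2 against Ctrl and -0.08 (SE 0.53) in EpPT1 against Ctrl.

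Prdx5 had 89.0, 85.6 and 116 CPM in EpPT1 libraries, 94.2, 118 and 110 CPM in EpPT2 libraries, and 67.4, 98.1 and 134 CPM in Ctrl libraries. The Ctrl group spanned all other libraries, and the log2 difference was 0.11 (SE 0.27) in EpPT2 against Ctrl and -0.04 (SE 0.27) in EpPT1 against Ctrl. With the GC trend removed the EpPT2 difference was -0.37 (SE 0.22). Of the 2139 exon bases of Prdx5, 409 overlap Trmt112 on the opposite strand. As for Prdx2, it is unclear to which gene reads within this stretch were assigned, which limits the level of Prdx5. Prdx4, the peroxiredoxin of the endoplasmic reticulum, had 86.8 to 128 CPM, with a log2 difference of 0.14 (SE 0.22) in EpPT2 against Ctrl, and Prdx6b at most 4 counts.

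Over the 10 genes the median log2 difference was -0.06 in EpPT1 against Ctrl, -0.20 in EpPT2 against Ctrl and -0.14 in EpPT2 against EpPT1, beside -0.02, -0.03 and -0.01 over all genes tested. The median size without sign was 0.12, 0.35 and 0.16, beside 0.27, 0.39 and 0.20 over all genes. EpPT2 holds 2 libraries of high mitochondrial share, and EpPT1 and Ctrl hold 1 each. The part of this imbalance in the medians was not tested. The comparisons against Ctrl share the Ctrl libraries, so their values are given side by side and not as repeats. In EpPT2 against EpPT1 the differences ran from -0.29 (SE 0.54) for Prdx3 to 0.17 (SE 0.23) for Sod1, with an edgeR adjusted p of 0.9999 for each. The groups were apart for 0 of 10 genes in that comparison, beside 2.45% of all genes tested, and 0 of 10 genes had an unadjusted p under 0.05, beside 0.214%.

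**Figure D4:**
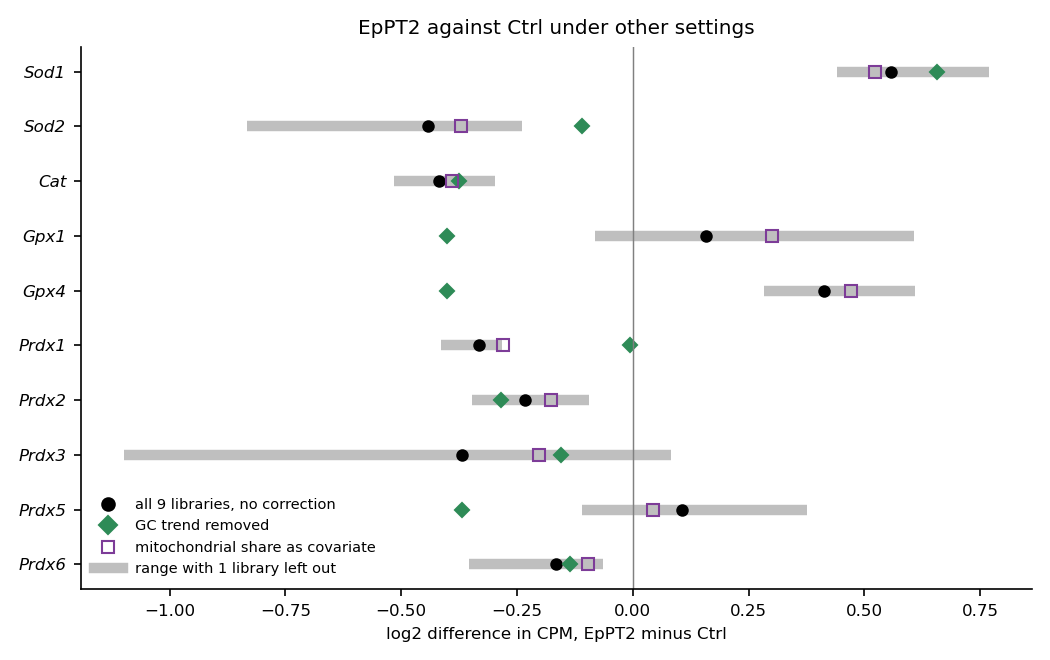
Log2 difference of EpPT2 from Ctrl for each gene in the fit of all 9 libraries, after removal of the GC trend, with the mitochondrial share as a covariate, and, as a grey band, the range when 1 library is left out. Sod1, Sod2, Cat, Prdx2 and Prdx6 keep their sides of 0 in all of these, with Sod2 at -0.11 when the GC trend is removed. Gpx1, Gpx4 and Prdx5 cross to below 0 with the GC trend removed, and Prdx1 comes to -0.01. The grey bands of Gpx1, Prdx3 and Prdx5 cross 0.

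The division of the libraries by mitochondrial share, described without a test because its classes were set from these libraries, coincided with non-overlapping levels of 4 of the 10 genes. The median of Prdx3 was 52.4 CPM in the 4 libraries of high share and 155 CPM in the 5 of low share, and the classes did not overlap. Prdx2 and Prdx6 were also lower in all 4, with medians of 189 and 662 CPM against 231 and 921 CPM, while Prdx5 was higher in all 4, with a median of 117 CPM against 89.0 CPM. Of all genes tested, 18% were lower and 16.5% higher in all 4, so 4 of 10 genes compare with 34.5% of genes.

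Prdx5 per length was 1.36 to 1.57 times Prdx3 in the libraries of high share and 0.272 to 0.708 times Prdx3 in those of low share. On these exon lengths, the more abundant of Prdx3 and Prdx5 thus differed between the classes. Without division by length, Prdx5 was also above Prdx3 in Ctrl 2, of low share, at 98.1 against 95.7 CPM. The 10 genes together took 0.248% to 0.260% of counts in libraries of high share and 0.306% to 0.345% in those of low share, and 0.266% to 0.279% against 0.315% to 0.357% when mitochondrial genes were left out of the total. The summed blood and immune markers, nearly all Cd68, also differed between these classes, at 87.7 to 103 CPM against 8.93 to 45.7 CPM, with Cd3e and Hbb-bs at or under 2 counts. The summed fibroblast markers, nearly all Dcn, were at 1822 to 3295 CPM against 743 to 2148 CPM. The part of either in the levels of the 10 genes was not tested.

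**Figure D5:**
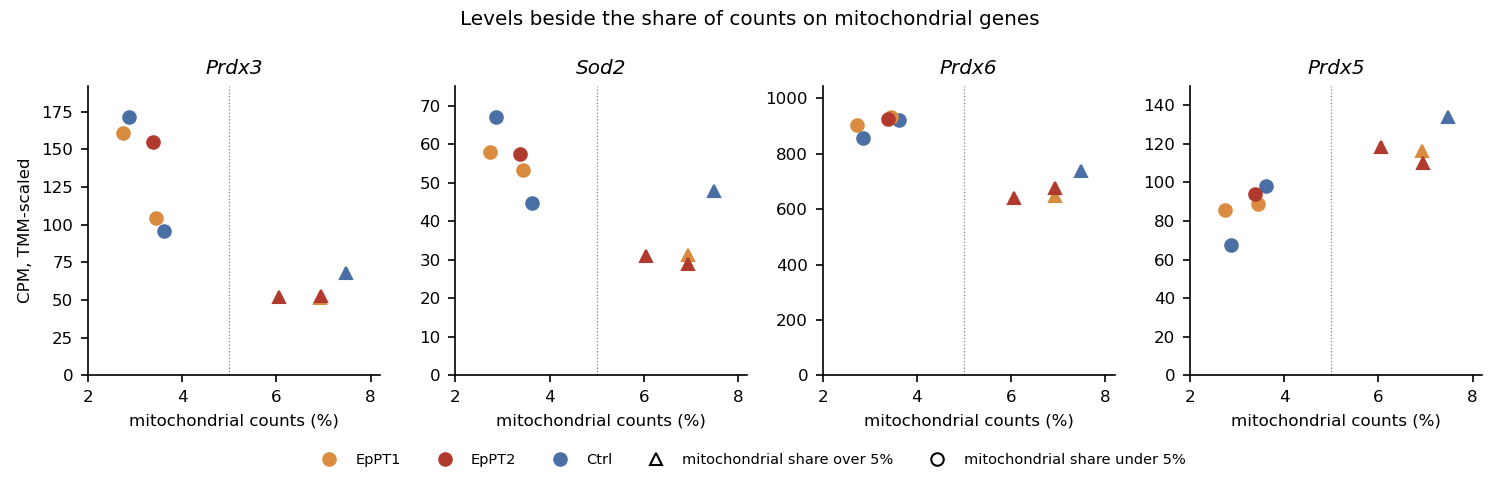
TMM-scaled CPM of Prdx3, Sod2, Prdx6 and Prdx5 against the percentage of counts on mitochondrial genes in the 9 libraries, coloured by group; the dotted line marks 5%. Prdx3 lies at 51.5 to 68.1 CPM in the 4 libraries to the right of the line and at 95.7 to 171 CPM in the 5 to the left, while Prdx5 runs the other way.

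Genes that supply, load or regulate these enzymes were followed as 10 further lists of 53 genes, 42 of them tested. In the edgeR test 0 of the 42 passed in any comparison. In EpPT2 against Ctrl 18 were above 0 and 24 below, with a median log2 difference of -0.03, and 6 (14.3%) had an unadjusted p under 0.05, beside 12.2% of all genes tested. In EpPT1 against Ctrl 2 (4.76%) did, beside 3.93%, and 0 did in EpPT2 against EpPT1. These shares lie near the background.

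The smallest p belonged to Pex14, a docking protein for the import of catalase and other enzymes into peroxisomes. It had 4.16, 19.5 and 18.4 CPM in EpPT1 libraries, 16.5, 21.6 and 21.1 CPM in EpPT2 libraries, and 5.46, 6.70 and 4.35 CPM in Ctrl libraries. Every exposed library except EpPT1 1 lay above the Ctrl libraries. The log2 difference was 1.84 (SE 0.50, p 0.00401) in EpPT2 against Ctrl, with an edgeR adjusted p of 0.376, and 1.34 (SE 0.49) in EpPT1 against Ctrl. Without the filter on low counts the EpPT2 difference passed edgeR's test, with an adjusted p of 0.00524. That setting called 268 of 28724 genes, and the difference passed in no other setting, DESeq2 included. Pex13, another part of the docking complex, had 27.4 CPM on average in EpPT2 libraries and 43.1 CPM in Ctrl libraries, a log2 difference of -0.66 (SE 0.23, edgeR adjusted p 0.376), which was -0.26 with the GC trend removed.

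Of the enzymes that make NADPH, on which glutathione and thioredoxin reductases draw, Pgd of the pentose phosphate pathway had 141, 179 and 178 CPM in EpPT1 libraries, 183, 164 and 152 CPM in EpPT2 libraries, and 109, 132 and 115 CPM in Ctrl libraries. Both exposed groups lay above Ctrl, with a log2 difference of 0.49 (SE 0.19) in EpPT2 against Ctrl and an edgeR adjusted p of 0.382. Malic enzyme, Me1, averaged 238 CPM in EpPT2 libraries and 379 CPM in Ctrl libraries, a log2 difference of -0.67 (SE 0.29, edgeR adjusted p 0.398). All 6 NADPH genes were tested, 1 above 0 and 5 below.

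Of the regulators, Keap1, which holds the factor encoded by Nfe2l2 in check, averaged 57.8 CPM in EpPT2 libraries and 35.9 CPM in Ctrl libraries, and Nfe2l2 itself 254 and 312 CPM. The log2 differences were 0.69 (SE 0.29, edgeR adjusted p 0.388) and -0.30 (SE 0.20, edgeR adjusted p 0.519), and with the GC trend removed they were 0.06 and -0.15. Of the thioredoxin and glutaredoxin genes, 5 were above 0 and 6 below, led by the mitochondrial reductase Txnrd2 at 0.47 (SE 0.27) and by Glrx3 at -0.36 (SE 0.26). The 5 genes of glutathione synthesis and recycling stayed between -0.20 and 0.01, with Gss at -0.20 (SE 0.29) and glutathione reductase, Gsr, at -0.19 (SE 0.33).

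The 6 genes for building selenocysteine into proteins such as Gpx1 and Gpx4 had 2 above 0 and 4 below, led by Secisbp2 at 0.50 (SE 0.24) and Pstk at -0.29 (SE 0.26). Of 8 sources of superoxide and peroxide, Xdh was the most abundant, with 29.9 to 46.2 CPM and a log2 difference of -0.08 (SE 0.22) in EpPT2 against Ctrl. Nox1, Nox3, Nox4, Cybb and Cyba had at most 6 counts in any library. Duox1 and Duox2, oxidases that release hydrogen peroxide at the cell surface, averaged 4.81 and 2.86 CPM in EpPT2 libraries and 2.80 and 1.60 CPM in Ctrl libraries, with log2 differences of 0.79 (SE 0.83) and 0.85 (SE 1.15). Both lay higher in every library of high mitochondrial share than in any of low share, as did 16.5% of all genes tested.

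For each of the 10 genes, the nearest other gene by its profile over the 9 libraries was found among 8522 genes with a mean of at least 10 CPM, as the root mean square distance between log2 CPM values centred on each gene's mean. Sod1 was nearest to Nsfl1c at 0.09, where the median distance of a gene from Sod1 was 0.48, and Prdx3 to Idh3a, a subunit of the mitochondrial isocitrate dehydrogenase, at 0.09, where the median was 0.69. Prdx1 was nearest to Ppp2cb, Prdx2 to Arpc4, Prdx5 to Csrp2 and Prdx6 to Uba1, at 0.04 to 0.05, and Sod2 to Thyn1, Cat to Gipc2, Gpx1 to Tsta3 and Gpx4 to Ndufc2, at 0.07 to 0.14. Among the 10 genes themselves the closest were Prdx2 and Prdx6 at 0.11 and Prdx1 and Prdx2 at 0.11. Each nearest gene was picked as the smallest of 8522 distances, so it lies below the median by construction. All these distances describe 9 libraries that share the division by mitochondrial share.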

How the data were processed

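The source was a single table of unnormalized gene counts from 9 HC11 RNA-seq libraries, as the authors deposited it. The submitters' processing notes name Bowtie 0.12.2 and the mouse build mm8. Start and end in the table equal GENCODE mouse release 21 (GRCm38) for 53499 of 54409 gene IDs found there, so coordinates are GRCm38. Neither the counter nor its strand setting is named in the sources used here.

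In R 4.3.3, edgeR 4.0.16 was run with filterByExpr, TMM scaling, 1 quasi-likelihood fit of all 9 libraries (6 residual degrees of freedom), two-sided tests and Benjamini-Hochberg adjustment over 14471 genes at 0.05; it was tested on simulated counts. SE values derive from the F statistic of each log2 difference. Levels are TMM-scaled CPM, and CPM per kilobase uses the length column of the deposited table. A count of 0 allows up to 3 counts, 0.174 to 0.206 CPM by library, for counting error only. Copies were sought among GENCODE transcripts with BLAST 2.17.0 (at least 95% identity over 300 bases). The 10 genes and the lists were chosen with earlier results of these data known. Besides the 10 genes, those named are up to 2 of each list with the smallest p in EpPT2 against Ctrl, Xdh, and the nearest profile of each gene (Python 3.11.15). Alternatives were DESeq2 1.42.0 or its size factors, no filter, the replicate number as a block, the mitochondrial share as a covariate, libraries with under 5% mitochondrial counts, each library left out, plain totals, and, added after the data were seen, removal of a GC trend per library (a spline with 5 degrees of freedom).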

Additional observations from a re-analysis of the deposited data

How the results depend on the processing

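In EpPT1 against Ctrl, EpPT2 against Ctrl, EpPT2 against EpPT1 and the test for any group, 0 genes were called in the reported fit. Without the filter on low counts 32, 268, 2 and 132 genes were called, and DESeq2 called 1, 62 and 0 genes and 2 for any group; none of the 10 genes was among them. Leaving out 1 library gave 0 to 2 calls in EpPT2 against Ctrl, the 2 without EpPT1 1. The other settings gave 0, and the 10 levels summed to 1005 CPM per kilobase with TMM scaling and 1007 with plain totals.

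Differences that changed sign are given next, none of them past the test. With the GC trend removed, EpPT1 against Ctrl was 0.070 for Sod2, -0.22 for Gpx1, -0.19 for Gpx4, 0.054 for Prdx1 and 0.062 for Prdx3; EpPT2 against Ctrl was -0.40 for Gpx1, -0.40 for Gpx4, -0.37 for Prdx5 and 0.063 for Pstk; EpPT2 against EpPT1 was -0.18 for Gpx1, -0.21 for Gpx4 and -0.045 for Prdx5. With the mitochondrial share as a covariate, EpPT1 against Ctrl was 0.024 for Prdx5; EpPT2 against Ctrl was -0.086 for Gpx8; EpPT2 against EpPT1 was 0.043 for Prdx3. In the 5 libraries of low share, with 1 EpPT2 library assumed to vary like the others, EpPT1 against Ctrl was 0.0077 for Sod2, -0.021 for Gpx1, 0.0039 for Prdx3, 0.088 for Prdx5 and 0.058 for Prdx6; EpPT2 against Ctrl was 0.058 for Sod2, 0.23 for Prdx3, 0.074 for Prdx6, -0.073 for Gpx8, 0.039 for Gss and 0.13 for Gsr; EpPT2 against EpPT1 was 0.050 for Sod2, 0.23 for Prdx3 and 0.017 for Prdx6. The cause was not tested.

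With 1 library left out, EpPT1 against Ctrl ranged from -0.19 to 0.50 for Gpx1, -0.22 to 0.048 for Prdx2, -0.52 to 0.37 for Prdx3, -0.26 to 0.23 for Prdx5, -0.12 to 0.13 for Prdx6 and -0.33 to 0.067 for Sod2. EpPT2 against Ctrl ranged from -0.081 to 0.61 for Gpx1, -1.76 to 1.79 for Gpx2, -0.15 to 0.27 for Gpx8, -0.54 to 0.014 for Gsr, -0.44 to 0.19 for Gss, -1.10 to 0.082 for Prdx3 and -0.11 to 0.38 for Prdx5. EpPT2 against EpPT1 ranged from -0.29 to 0.033 for Cat, -0.049 to 0.26 for Gpx1, -0.33 to 0.030 for Prdx1 and -1.02 to 0.15 for Prdx3. In EpPT2 against Ctrl, Sod1 ranged from 0.44 to 0.77 and Sod2 from -0.83 to -0.24.

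The replicate numbers share no stated batch, so they were not taken as pairs. Deviations from group means correlated at -0.636 to 0.732 between same-numbered libraries, mostly above 0. Between differently numbered libraries they correlated at -0.772 to 0.746, mostly below 0. All libraries numbered 3 had a high mitochondrial share and all numbered 1 a low share, so an effect of the number cannot be told apart from that division. With the replicate block 0 genes were called, with 947, 3056 and 173 at an unadjusted p under 0.05; no difference of the 10 genes changed sign, and Sod1 was 0.58 (SE 0.22, edgeR adjusted p 0.166) in EpPT2 against Ctrl.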
